A study of Mus musculus with 6 samples.

Results

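The genes described here are 56 components and targets of the WNT pathway, measured by RNA-seq in sorted mouse alveolar type 2 cells (AT2s). They were taken by symbol from a count table of 24421 genes and fall into 8 classes, namely 12 WNT ligands, 2 genes of WNT secretion, 12 receptors and co-receptors, 7 genes of the destruction complex and Dishevelled family, 4 TCF/LEF factors, 9 feedback targets, 4 R-spondins and LGR receptors, and 6 secreted antagonists. AT2s are the surfactant-producing cells of the lung alveolus, and they also act as progenitors of the flat alveolar type 1 cells. The 3 control libraries (AT2CTRL) carried the genotype Sftpc-CreERT2/+; R26-tdTomato/+, and the mice were 12, 16 and 12 weeks old for replicates 1, 2 and 3. The 3 libraries of the other group (AT2CAB) carried Sftpc-CreERT2/+; R26-tdTomato/R26-caBmpr1a, and the mice were 16, 12 and 12 weeks old. caBmpr1a is a constitutively active form of the BMP receptor BMPR1A, kept silent at the Rosa26 locus until Cre removes a stop cassette. Both groups therefore shared the tamoxifen-dependent Cre driven by the surfactant protein C gene and the tdTomato lineage label by which cells were sorted, and the comparison asks how the WNT genes differed when BMP signalling was raised in the AT2s by this receptor.

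WNT ligands are lipid-modified by the acyltransferase encoded by *Porcn* and carried to the cell surface by *Wls*. They bind Frizzled receptors together with the co-receptors LRP5 and LRP6, which acts through Dishevelled to stop the destruction complex (APC, AXIN, GSK3B) from marking β-catenin for degradation, so that β-catenin can join TCF/LEF factors on DNA. Many targets of this pathway, *Axin2* among them, feed back to dampen it, and in the alveolus *Axin2*-expressing AT2s are known as a WNT-responsive progenitor population.

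The libraries held 21554249 to 28440227 counts. Values are given as CPM, the share of a library's counts scaled by edgeR's TMM factors, and as RPKM, which also divides by exon length, wherever different genes are compared. A total of 3 counts, used as the limit of detection, corresponds to 0.0976 to 0.138 CPM, which covers counting error alone. AT2 markers summed to 110459 to 124252 CPM in AT2CTRL and 95485 to 105738 CPM in AT2CAB, far above every other marker list, and the 6 BMP targets were each higher in all AT2CAB libraries, with sums of 801 to 1759 CPM against 279 to 332 CPM. AT2CTRL 1 and AT2CAB 3 had 176 and 146 CPM on 4 Y-linked genes and the other 4 libraries had 0, so values from those 4 libraries and from the remaining pair are given for the members that stand out. Since each library holds RNA from a bulk of sorted cells, a change in RNA per cell and a change in the share of cells that express a gene cannot be told apart. From staining of organoids, the study proposes that some labelled AT2CAB cells had recombined the tdTomato allele without the caBmpr1a allele. The share of such cells in these libraries is not known.

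Of the 56 genes, 53 passed the filter on low counts and 3 (*Wnt10a*, *Fzd9* and *Dkk1*) did not. None of the 53 was called higher at an adjusted p under 0.05 with a log2 fold change over 1, a rule that 0.227% of the 16723 tested genes passed, and none was called lower, where the share was 0.012%. Without the fold threshold the count was again 0, against 0.239% and 0.012% of all genes (quasi-likelihood test of edgeR, p-values adjusted by Benjamini-Hochberg). At an unadjusted p under 0.05, 5 members were higher (*Wnt11*, *Porcn*, *Notum*, *Dkk3*, *Wif1*) and 3 were lower (*Sp5*, *Fzd8*, *Fzd5*), where 4.62% and 5.05% of all genes were. limma-voom also called 0 members. DESeq2, the tool the study used, placed *Sp5* and *Wnt11* past an adjusted p of 0.05. By that rule 1.45% of its 13628 tested genes were higher and 0.646% lower. With the fold threshold added, DESeq2 called *Wnt11* alone, against 0.873% of its genes called higher and 0.183% called lower.

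Taken library by library, 4 members lay higher in all 3 AT2CAB libraries than in any AT2CTRL library (*Wnt11*, *Porcn*, *Wls*, *Notum*), and 7% of all tested genes did so. Another 2 lay lower in all 3 (*Sp5*, *Fzd8*), against 10.1% of all genes. Read against these shares, 4 of 53 is near the background and 2 of 53 is under it. The median log2 fold change was 0.16 over the 53 members and -0.01 over all tested genes. By sign, 37 members were positive and 16 negative, and 51.2% of all tested genes were negative. An exact permutation test of 3 libraries against 3 cannot give a two-sided p below 0.1, so the tests quoted are those of the fit across all genes.

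**Figure D1:**
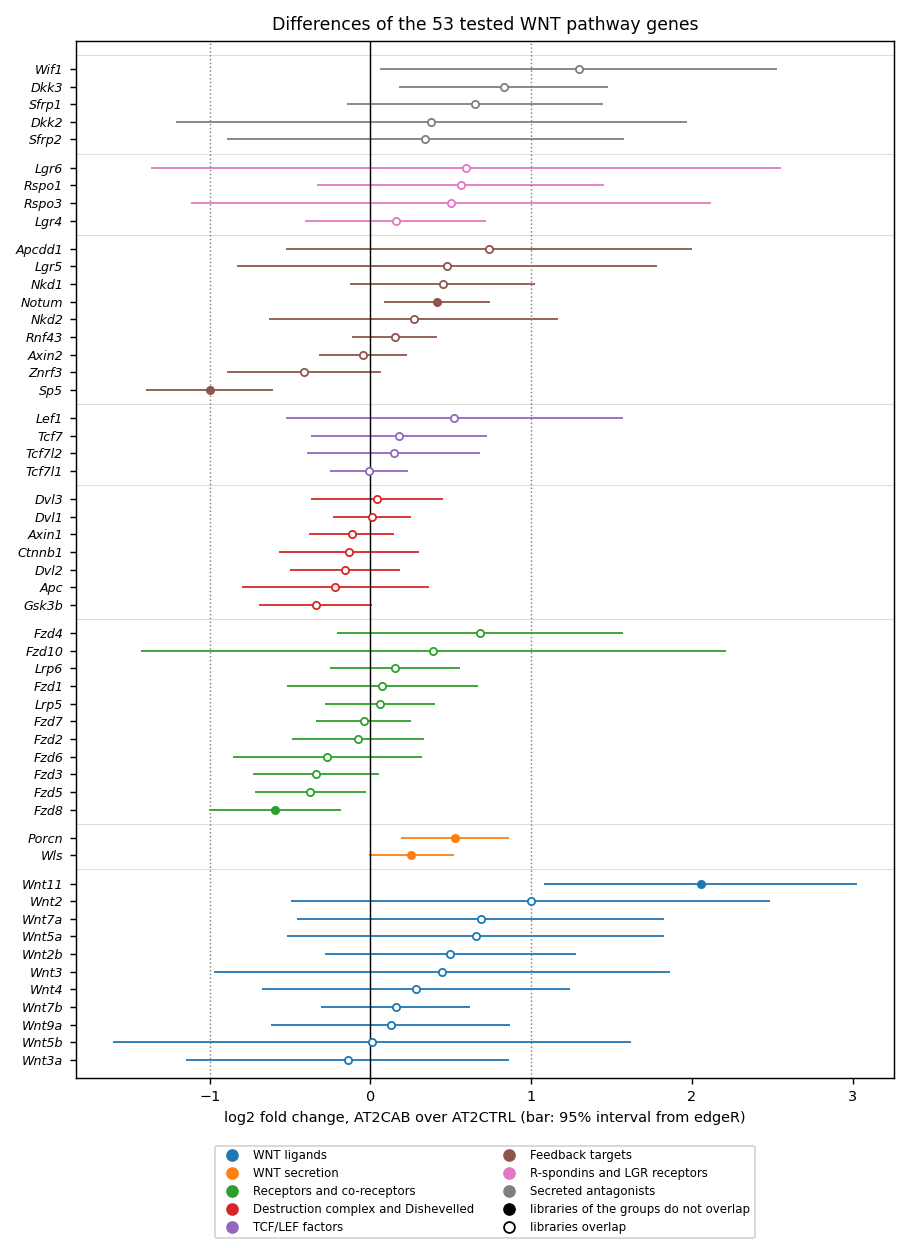
Log2 fold change of AT2CAB over AT2CTRL (x axis) for the 53 tested WNT pathway genes, grouped by class (y axis), with bars for the 95% interval from edgeR and filled points where the libraries of the groups do not overlap. *Sp5* at -0.999 and *Wnt11* at 2.05 lie farthest from 0 among the filled points, and the other 4 filled points lie between -0.59 and 0.53.

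The pair of genes that stood out, *Sp5* and *Wnt11*, differed in opposite directions, and the 250 bases before their annotated starts are shown because a window of each holds the core sequence that TCF/LEF factors recognise. *Wnt11* has 2 annotated starts, and the window of the other one (chr7:98838595-98838844), not printed, holds none of the motifs searched. *Sp5* (chromosome 2, 70474923 to 70477726 of mm10, forward strand) encodes a zinc-finger transcription factor known as a direct WNT/β-catenin target. *Wnt11* (chromosome 7, 98835112 to 98854747, forward strand) encodes a ligand best known for signalling that does not run through β-catenin. The sequences are from RefSeq on GRCm38.p6, which is mm10, at chr2:70474673-70474922 and chr7:98834862-98835111, both on the forward strand, with matches to CTTTGAT or GGCGCC in capitals.
*Sp5*: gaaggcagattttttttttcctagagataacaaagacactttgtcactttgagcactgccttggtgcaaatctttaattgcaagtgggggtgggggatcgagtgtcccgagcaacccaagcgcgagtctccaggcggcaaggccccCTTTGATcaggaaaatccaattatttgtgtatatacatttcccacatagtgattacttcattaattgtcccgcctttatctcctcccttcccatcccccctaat
*Wnt11*: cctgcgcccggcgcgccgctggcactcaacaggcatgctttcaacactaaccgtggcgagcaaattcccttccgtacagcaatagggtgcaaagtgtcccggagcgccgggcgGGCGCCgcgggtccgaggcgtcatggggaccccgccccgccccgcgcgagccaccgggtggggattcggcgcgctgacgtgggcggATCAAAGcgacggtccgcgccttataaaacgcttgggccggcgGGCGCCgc
In *Sp5* the capitals mark CTTTGAT, whose first base lies 104 bases before the start. In *Wnt11* the same motif is read on the reverse strand (ATCAAAG on the strand printed), 51 bases before the start, between matches to GGCGCC, a motif bound by BMP-responsive SMADs, at 137 and 8 bases.

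Promoter windows were found for 37 of the 56 members, 47 windows in all, and both strands were searched. CTTTGAT was present in 1053 of 32851 windows of all genes (3.21%) and in 3 of the 47 member windows (6.38%). These were 1 each of *Sp5*, *Wnt11* and *Wnt5b*, and the log2 fold change of *Wnt5b* was 0.01. Whether the motif goes with a difference between the groups was not tested. The related core CTTTGAA was present in 4.46% of all windows and in 1 of the 47 (2.13%), that of *Dkk1*. GGCGCC, which reads the same on both strands, was present in 9.59% of all windows and in 16 of the 47 member windows (34%), belonging to 14 members. Some windows of a gene overlap, and the same *Lef1* match was counted in more than 1 window. GGCGCC holds only G and C, and the base composition of member windows and all windows was not compared. The motifs do not overlap one another in the windows printed. A match to these letters is a description of the window and not of a bound site, and *Axin2*, a WNT target, had none of the 3 in its window.

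*Sp5* had 55.4, 46.6 and 48.8 CPM in the 3 AT2CTRL libraries and 31.9, 22.3 and 21.3 CPM in the 3 AT2CAB libraries. The groups did not overlap, and the highest AT2CAB library, replicate 1, stayed well under the lowest AT2CTRL library. The means were 50.3 ± 4.57 CPM in AT2CTRL and 25.2 ± 5.84 CPM in AT2CAB (SD, n = 3), so that the log2 fold change came to -0.999 (standard error 0.17, 95% interval -1.39 to -0.60), and the adjusted p was 0.0934 in edgeR's test. In the 4 libraries with no reads on the Y-linked genes the log2 fold change was -0.79 (adjusted p = 0.0821, edgeR), and in the remaining pair the log2 ratio was -1.37. The direction held in all 18 alternatives, between -1.18 and -0.79, and the adjusted p fell under 0.05 in 4 of them: DESeq2 (0.000208), a covariate for the Y-linked reads (0.0208, edgeR), no filter on low counts (0.0447, edgeR) and the fit without AT2CAB 1 (0.0306, edgeR).

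*Wnt11* had 1.26, 1.97 and 0.876 CPM in AT2CTRL and 3.58, 5.82 and 7.62 CPM in AT2CAB, from 23 to 46 counts and 78 to 234 counts. Every AT2CAB library was above every AT2CTRL library. The means, 1.37 ± 0.557 CPM in AT2CTRL and 5.67 ± 2.02 CPM in AT2CAB (SD, n = 3), made *Wnt11* the member with the highest log2 fold change, 2.05 (standard error 0.43, 95% interval 1.08 to 3.03, adjusted p = 0.149 in edgeR's test). Per length the means were 0.429 and 1.78 RPKM, which placed it below *Wnt3a* and *Wnt7b* and above the remaining ligands in AT2CAB. The difference was 1.77 in the 4 libraries with no Y-linked reads (adjusted p = 0.157, edgeR) and 2.51 in the remaining pair. Over the 18 alternatives it ranged from 1.77 to 2.41, and it passed an adjusted p of 0.05 in DESeq2 (0.00029) and with the Y-linked covariate (0.0338, edgeR).

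**Figure D2:**
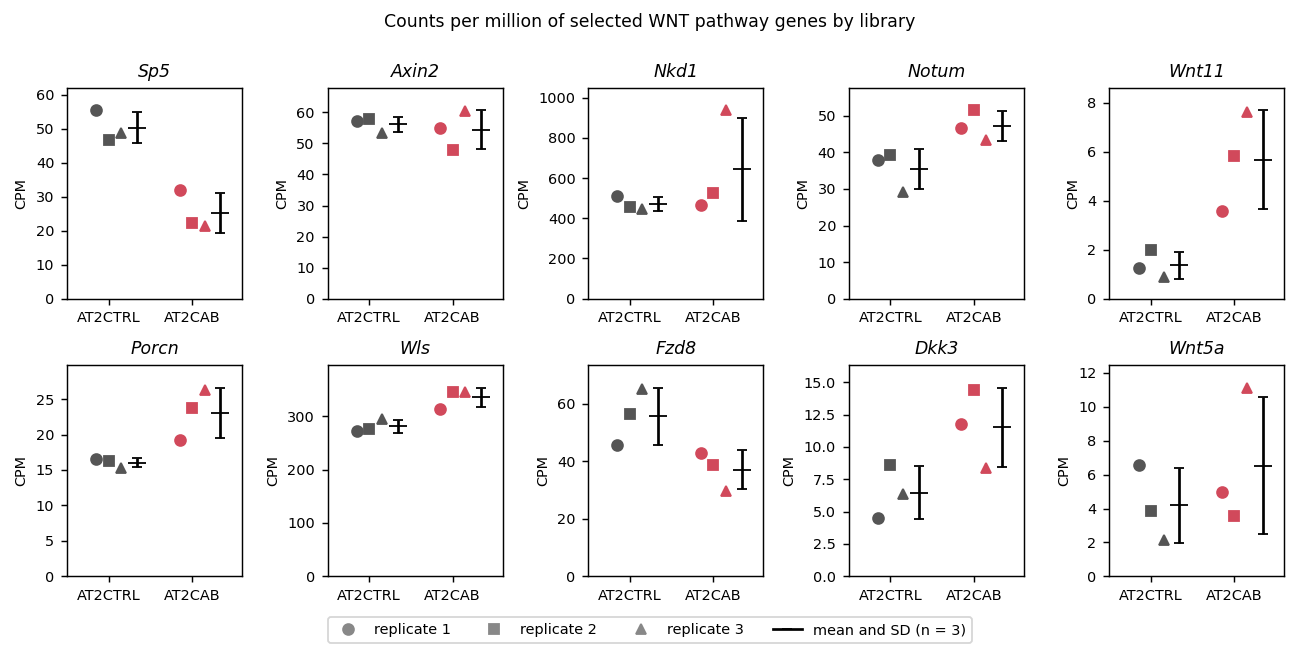
CPM (y axis, from 0) of 10 WNT pathway genes in each AT2CTRL and AT2CAB library (x axis), with symbols for the replicate number and a bar for the mean and SD of 3 libraries. *Sp5* and *Fzd8* are lower and *Wnt11*, *Porcn*, *Wls* and *Notum* higher in all 3 AT2CAB libraries, *Axin2* lies at 48.0 to 60.4 CPM in both groups, and *Nkd1* is high in AT2CAB 3 alone.

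Among the 12 ligands, *Wnt3a* and *Wnt7b* had the highest levels per length, at a mean of 6.49 and 4.997 RPKM over the 6 libraries, and the other 10 lay between 0.213 and 1.35 RPKM. *Wnt3a*, a classical activator of β-catenin signalling, had 25.9, 23.2 and 7.08 CPM in AT2CTRL and 14.9, 23.4 and 12.5 CPM in AT2CAB. Its lowest value was AT2CTRL 3, the groups overlapped, and the log2 fold change was -0.14 (95% interval -1.14 to 0.86, adjusted p = 0.932, edgeR), a difference whose sign turned in the 4 libraries with no Y-linked reads (0.39). *Wnt7b*, a ligand of the lung epithelium, had 15.4, 21.3 and 25.8 CPM in AT2CTRL and 23.0, 26.8 and 20.02 CPM in AT2CAB, and its log2 fold change was 0.16 (95% interval -0.31 to 0.62, adjusted p = 0.834, edgeR). Neither of the leading ligands thus differed by more than its spread between libraries.

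*Wnt5a*, a ligand of β-catenin-independent signalling that fibroblasts of the alveolar niche are known to make, had 6.55, 3.86 and 2.13 CPM in AT2CTRL and 4.95, 3.53 and 11.1 CPM in AT2CAB. The high mean of AT2CAB came from AT2CAB 3, since its other 2 libraries lay inside the AT2CTRL range. The log2 fold change was 0.65 (95% interval -0.52 to 1.83, adjusted p = 0.708, edgeR) and 0.07 without AT2CAB 3. Of the 7 remaining tested ligands, all had a positive log2 fold change, from 0.01 for *Wnt5b* to 0.997 for *Wnt2*. None passed the test, and the groups of all 7 overlapped. All 7 lay under 10 CPM, a range where 70.2% of all tested genes were positive. *Wnt2*, at 1.13 ± 0.809 CPM in AT2CTRL and 2.26 ± 1.13 CPM in AT2CAB (SD, n = 3), had a 95% interval from -0.49 to 2.49. *Wnt10a* was not tested, with 14, 0 and 2 counts in AT2CTRL and 6, 0 and 47 counts in AT2CAB.

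Both secretion genes were higher in every AT2CAB library, although neither passed the test. *Porcn* (chromosome X, 8193846 to 8206525, reverse strand) had 16.5, 16.3 and 15.3 CPM in AT2CTRL and 19.2, 23.7 and 26.2 CPM in AT2CAB. The AT2CTRL libraries lay close together, all under the lowest AT2CAB library, and the log2 fold change was 0.53 (95% interval 0.19 to 0.86, adjusted p = 0.307, edgeR). *Wls* (chromosome 3, 159839695 to 159935175, forward strand) had 272, 277 and 295 CPM in AT2CTRL and 314, 346 and 345 CPM in AT2CAB, a log2 fold change of 0.25 (95% interval -0.01 to 0.52, adjusted p = 0.530, edgeR). With a mean of 111 RPKM, *Wls* was exceeded by *Ctnnb1* and *Nkd1* alone among the members per length. The log2 fold changes in the 4 libraries with no Y-linked reads and in the remaining pair were 0.48 and 0.67 for *Porcn*, and 0.24 and 0.34 for *Wls*.

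**Figure D3:**
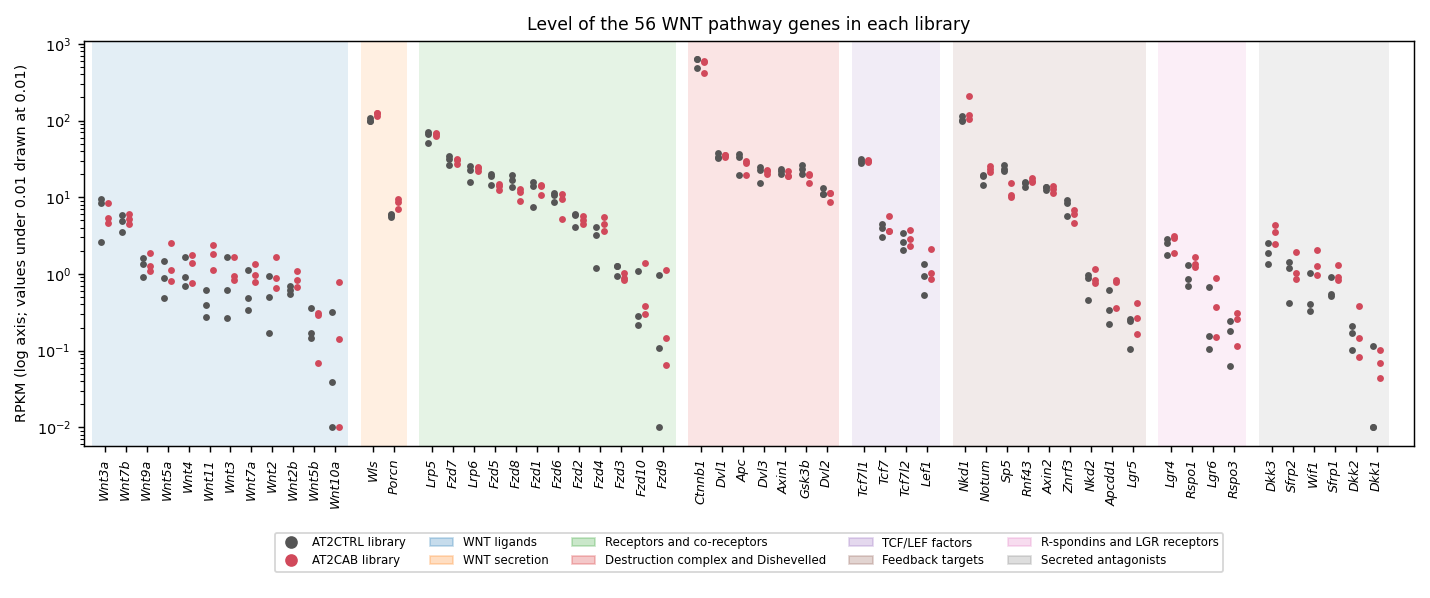
RPKM (y axis, log scale) of the 56 genes in each library, ordered within each class by mean RPKM (x axis), with AT2CTRL in grey and AT2CAB in red. *Ctnnb1* is the most abundant gene at a mean of 559 RPKM, and most ligands, R-spondins and antagonists lie near or below 1 RPKM.

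The Frizzled receptors and their co-receptors covered a wide range, from 0.400 RPKM for *Fzd9* to 64.8 RPKM for the co-receptor *Lrp5*. *Lrp5* had 265, 349 and 371 CPM in AT2CTRL and 352, 329.9 and 344 CPM in AT2CAB, with a log2 fold change of 0.06 (95% interval -0.28 to 0.40, adjusted p = 0.919, edgeR). *Fzd7*, the leading Frizzled at 30.2 RPKM, had 128, 149.9 and 164 CPM in AT2CTRL and 152, 146 and 131 CPM in AT2CAB, and its log2 fold change was -0.04 (95% interval -0.34 to 0.26, adjusted p = 0.931, edgeR), with a sign that turned under other scalings. Neither of these leading receptor genes separated the groups. *Fzd8* had 45.6, 56.3 and 65.3 CPM in AT2CTRL and 42.8, 38.6 and 29.6 CPM in AT2CAB. It was the receptor whose groups did not overlap, by a narrow gap between AT2CTRL 1 and AT2CAB 1, and its log2 fold change was -0.59 (95% interval -1.004 to -0.18, adjusted p = 0.352, edgeR), with -0.55 in the 4 libraries with no Y-linked reads and -0.62 in the remaining pair. With the Y-linked covariate its adjusted p was 0.0233 in edgeR's test.

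*Fzd5*, named after its values were seen, had 99.0, 130.04 and 139.9 CPM in AT2CTRL and 97.6, 85.7 and 101 CPM in AT2CAB. Only AT2CTRL 1 reached into the AT2CAB range, and the log2 fold change was -0.37 (95% interval -0.72 to -0.03, adjusted p = 0.485, edgeR), -0.53 in the 4 libraries and 0.04 in the remaining pair. The other 7 tested receptors (*Fzd1*, *Fzd2*, *Fzd3*, *Fzd4*, *Fzd6*, *Fzd10* and *Lrp6*) had log2 fold changes from -0.34 to 0.68 and overlapping groups. *Fzd9* was not tested, with 45, 0 and 6 counts in AT2CTRL and 3, 8 and 73 counts in AT2CAB.

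Inside the cell, the 7 genes that carry or limit the β-catenin signal had log2 fold changes from -0.34 (*Gsk3b*) to 0.04 (*Dvl3*), and no group separated. The 95% interval of *Gsk3b* ran from -0.69 to 0.01. Some of the 7 varied widely within a group, such as *Apc* with 243, 422 and 451 CPM in AT2CTRL. *Ctnnb1*, which encodes β-catenin and also serves cell adhesion, had 1772, 2288 and 2289.9 CPM in AT2CTRL and 2167, 2103 and 1525 CPM in AT2CAB. The lowest value was AT2CAB 3 and the next AT2CTRL 1, and the log2 fold change was -0.13 (95% interval -0.57 to 0.30, adjusted p = 0.853, edgeR). *Dvl1*, the leading Dishevelled gene at 34.8 RPKM, had 113, 117 and 128 CPM in AT2CTRL and 117, 121 and 123 CPM in AT2CAB, a log2 fold change of 0.01 (95% interval -0.23 to 0.25, adjusted p = 0.981, edgeR). Of the remaining genes, *Apc*, *Gsk3b*, *Axin1* and *Dvl2* were negative and *Dvl3* positive.

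The TCF/LEF factors, which bring β-catenin to DNA, showed 1 abundant and 3 low members. *Tcf7l1*, often a repressor in the absence of WNT, had 92.0, 84.7 and 80.5 CPM in AT2CTRL and 84.5, 88.4 and 82.8 CPM in AT2CAB, at a mean of 29.7 RPKM, and its log2 fold change was -0.01 (95% interval -0.25 to 0.23, adjusted p = 0.986, edgeR). *Tcf7* had 6.77, 9.94 and 8.83 CPM in AT2CTRL and 12.7, 8.11 and 8.17 CPM in AT2CAB, with AT2CAB 1 highest, and a log2 fold change of 0.18 (95% interval -0.37 to 0.72, adjusted p = 0.846, edgeR). *Lef1* had 4.98, 3.47 and 1.94 CPM in AT2CTRL and 3.76, 3.18 and 7.91 CPM in AT2CAB, again with AT2CAB 3 highest as for *Wnt5a*. Its log2 fold change was 0.52 (95% interval -0.53 to 1.57, adjusted p = 0.740, edgeR), and 0.049 without AT2CAB 3. *Tcf7l2*, at 2.83 RPKM, had a log2 fold change of 0.14.

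None of the 9 feedback targets passed the test, and their log2 fold changes ran from -0.999 for *Sp5* to 0.74 for *Apcdd1*, with 6 positive and 3 negative. *Axin2* (chromosome 11, 108920349 to 108950781, forward strand), the scaffold protein most often used as a readout of β-catenin signalling, had 57.3, 57.8 and 53.4 CPM in AT2CTRL and 55.0, 48.0 and 60.4 CPM in AT2CAB. AT2CAB held both the lowest and the highest value. The log2 fold change was -0.04 with a 95% interval from -0.32 to 0.23 (adjusted p = 0.922, edgeR), and over the 18 alternatives it lay between -0.09 and 0.09.

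*Nkd1*, an inhibitor that binds Dishevelled, was exceeded by *Ctnnb1* alone, at 125 RPKM. It had 509, 458 and 446 CPM in AT2CTRL and 468, 525 and 937 CPM in AT2CAB, where AT2CAB 3 was far above the rest and the other 2 libraries lay in or just above the AT2CTRL range. The log2 fold change was 0.45 (95% interval -0.13 to 1.03, adjusted p = 0.610, edgeR) with all libraries, 0.12 without AT2CAB 3, and 0.17 in the 4 libraries with no Y-linked reads. *Notum* (chromosome 11, 120653789 to 120660837, reverse strand), a secreted enzyme that removes the lipid from WNT proteins, had 37.9, 39.3 and 29.1 CPM in AT2CTRL and 46.6, 51.6 and 43.4 CPM in AT2CAB. All AT2CAB libraries were above all AT2CTRL libraries, and the log2 fold change was 0.41 (95% interval 0.08 to 0.74, adjusted p = 0.418, edgeR), with 0.56 in the 4 libraries and 0.19 in the remaining pair.

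*Lgr5*, a receptor for R-spondins and a stem cell marker in the gut, was among the low members, at a mean of 0.242 RPKM. It had 1.21, 1.16 and 0.495 CPM in AT2CTRL and 1.24, 0.776 and 1.95 CPM in AT2CAB, a log2 fold change of 0.48 whose 95% interval ran from -0.83 to 1.79 (adjusted p = 0.820, edgeR). Without AT2CAB 3 it was 0.12 and without AT2CAB 2 it was 0.76. The membrane ligases *Rnf43* and *Znrf3*, which remove Frizzled receptors from the surface, had log2 fold changes of 0.15 and -0.41. *Nkd2* and *Apcdd1*, at 0.847 and 0.523 RPKM, had 0.27 and 0.74. None of these 5 separated the groups.

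R-spondins strengthen WNT signalling through the LGR receptors. All 4 genes of this class had positive log2 fold changes, from 0.16 to 0.59, overlapping groups and adjusted p-values of 0.672 or more in edgeR's test. *Rspo1*, *Rspo3* and *Lgr6* lay under 10 CPM, where 70.2% of all tested genes were positive. *Lgr4*, the leading one at 2.51 RPKM, had 14.3, 12.9 and 8.87 CPM in AT2CTRL and 14.7, 9.54 and 15.9 CPM in AT2CAB. *Rspo1* had 1.57, 2.40 and 1.29 CPM in AT2CTRL and 2.25, 2.48 and 3.03 CPM in AT2CAB, with 1 AT2CTRL library inside the AT2CAB range, and its log2 fold change was 0.56 (95% interval -0.33 to 1.46). *Rspo3* and *Lgr6* lay at 0.194 and 0.393 RPKM.

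The secreted antagonists, which bind WNT proteins or their co-receptors outside the cell, were all low, from 0.0551 RPKM for *Dkk1* to 2.68 RPKM for *Dkk3*. *Dkk3*, a divergent member of the Dickkopf family, had 4.53, 8.57 and 6.32 CPM in AT2CTRL and 11.8, 14.4 and 8.33 CPM in AT2CAB. The groups overlapped where AT2CTRL 2 lay just above AT2CAB 3, and the log2 fold change was 0.83 (95% interval 0.18 to 1.48, adjusted p = 0.416, edgeR), with 0.85 in the 4 libraries with no Y-linked reads and 0.87 in the remaining pair. With the Y-linked covariate its adjusted p was 0.0488 in edgeR's test. *Sfrp2* had 2.82, 2.40 and 0.838 CPM in AT2CTRL and 2.06, 1.71 and 3.87 CPM in AT2CAB, a log2 fold change of 0.34 (95% interval -0.89 to 1.58, adjusted p = 0.865, edgeR).

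*Wif1*, a WNT-binding protein named after its values were seen, had 2.29, 0.729 and 0.914 CPM in AT2CTRL and 2.15, 2.83 and 4.62 CPM in AT2CAB. AT2CTRL 1 lay above AT2CAB 1, and the log2 fold change of 1.30 had a 95% interval from 0.06 to 2.53 (adjusted p = 0.495, edgeR). *Sfrp1* and *Dkk2* had log2 fold changes of 0.65 and 0.38 with overlapping groups. *Dkk1* was not tested, with 0, 6 and 0 counts in AT2CTRL and 5, 4 and 3 counts in AT2CAB.

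With the Y-linked covariate, 4 members (*Sp5*, *Fzd8*, *Wnt11* and *Dkk3*) passed an adjusted p of 0.05, where 1.27% of all tested genes were higher and 1.26% lower in edgeR's test. With the fold threshold as well, *Wnt11* was called higher and *Sp5* lower, against 0.646% and 0.203% of all genes.

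The sign of the differences went with abundance, which was split at 10 CPM after the values were seen. All 23 tested members with a mean under 10 CPM had a positive log2 fold change (median 0.50), and among all 7491 tested genes of that range 70.2% were positive (median 0.26). Of the 30 members at 10 CPM or more, 14 were positive (46.7%, median -0.03), as were 31.4% of the 9232 genes of that range (median -0.09). The low members are mostly ligands, R-spondins and antagonists, and their classes had the higher medians, 0.44 for the ligands, 0.53 for the R-spondins and LGR receptors and 0.65 for the antagonists, while the destruction complex and Dishevelled class had -0.13 and the receptors -0.04.

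The summed level of the 23 low members was 66.8, 63.7 and 41.2 CPM in AT2CTRL and 74.2, 77.6 and 103 CPM in AT2CAB. AT2CTRL 3 was the lowest and AT2CAB 3 the highest library. AT2CTRL 1 and AT2CAB 3, the libraries with Y-linked reads, were the highest of their groups for 13 and 17 of these 23 members, for 11 of them both. The same count was not made over all genes under 10 CPM. AT2CTRL 1 and AT2CAB 3 also had the most genes detected in their groups, 20271 and 21422. Without AT2CAB 3, 18 were positive, where 54.4% of all genes under 10 CPM were, and in the 4 libraries without Y-linked reads 22 were, against 67.9% of all genes.

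Markers of other lung cells stood beside these low levels as follows. For the counts of separated markers, 7% of all tested genes lay higher and 10.1% lower in all AT2CAB libraries. The 8 mesenchymal markers summed to 142 to 190 CPM in AT2CTRL and 232 to 288 CPM in AT2CAB, with 3 of 8 (*Col1a1*, *Col1a2*, *Col3a1*) higher in all AT2CAB libraries and none at 0. The 6 endothelial markers summed to 165 to 356 against 311 to 511 CPM, with 0 of 6 separated, and the 6 airway markers to 529 to 734 against 703 to 1089 CPM, with 2 of 6 (*Foxj1*, *Tppp3*) higher in all AT2CAB libraries and *Krt5* at 0 in every library. The 6 T cell markers summed to 4.75 to 8.87 against 7.39 to 13.1 CPM and the 6 other leukocyte markers to 56.3 to 62.8 against 49.2 to 105 CPM, with 1 of 6, *Itgam*, separated. The 6 AT1 markers summed to 1718 to 2696 against 2036 to 2276 CPM, with 1 of 6, *Aqp5*, lower in all AT2CAB libraries. Of the 7 AT2 markers, whose sums are given above, 4 (*Sftpa1*, *Lamp3*, *Slc34a2* and *Etv5*) were lower in all AT2CAB libraries. Only the mesenchymal sum separated the groups among the lists of other cells, and the part of any of these cells in the levels of the WNT genes was not tested.

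**Figure D4:**
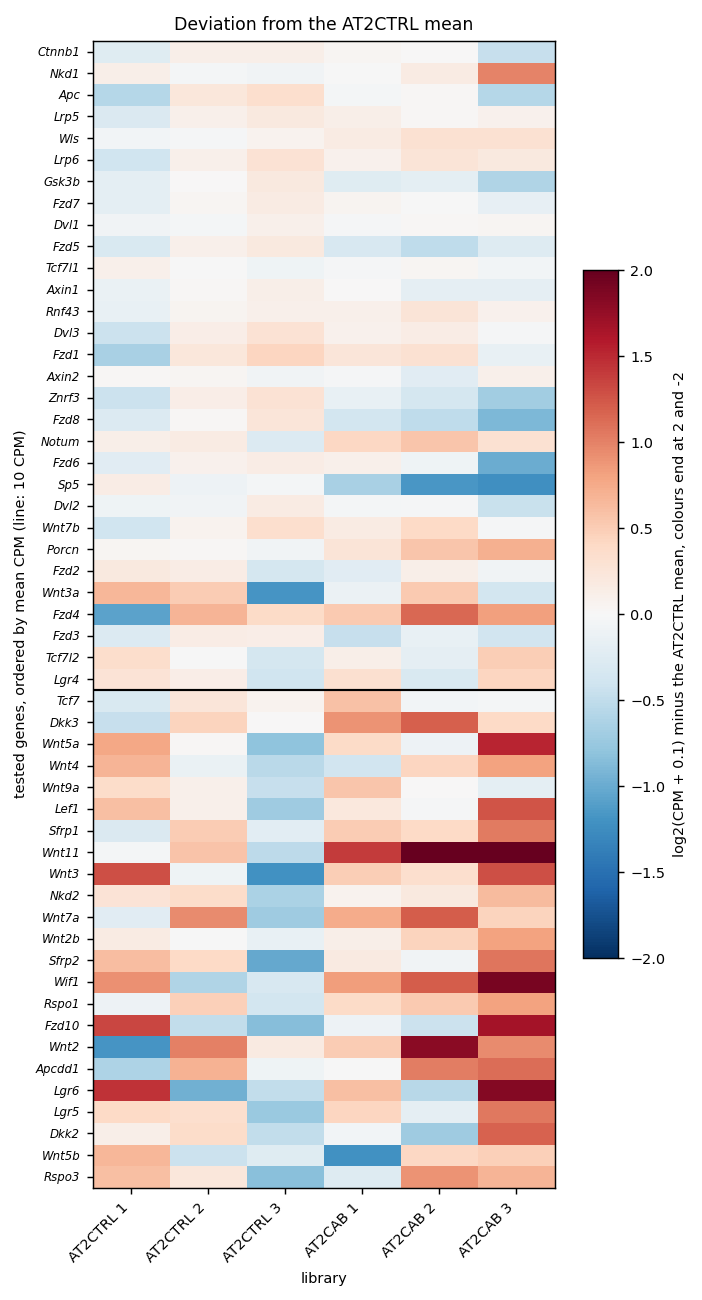
Difference of each library (x axis) from the AT2CTRL mean in log2(CPM + 0.1) for the 53 tested genes, ordered by mean CPM from top to bottom (y axis) with a line at 10 CPM. Below the line AT2CAB columns are mostly red, most of all AT2CAB 3, and above it most differences are nearer to 0, with *Sp5* and *Fzd8* blue in all 3 AT2CAB columns.

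Beyond the 56 members, 63 further genes of the pathway were examined, 53 of which were tested. None passed the test, and 31 were positive and 22 negative, where 51.2% of all tested genes were negative. In all AT2CAB libraries 4 lay higher and 3 lower, against 7% and 10.1% of all tested genes, so near or under the background. Their median log2 fold change was 0.09. *Daam2*, a formin-family protein of WNT signalling, had 56.6, 80.8 and 66.8 CPM in AT2CTRL and 110.5, 139 and 247 CPM in AT2CAB, with a log2 fold change of 1.28 (95% interval 0.62 to 1.94, adjusted p = 0.189, edgeR). *Ascl2*, a transcription factor known as a WNT target in the gut, had 0.942, 1.2001 and 1.07 CPM in AT2CTRL and 0.458, 0.388 and 0.391 CPM in AT2CAB, and its log2 fold change was -1.37 (95% interval -2.52 to -0.22, adjusted p = 0.442, edgeR). These levels rest on 21, 28 and 28 counts in AT2CTRL and 10, 10 and 12 in AT2CAB. Of the 8 tested genes in its list of other reported WNT targets, 4 were positive and 4 negative, with a median log2 fold change of 0.03. *Tle3*, a Groucho-family co-repressor of TCF factors named after its values were seen, had the lowest adjusted p of the 53 (0.0715, edgeR), with 48.3, 52.8 and 49.3 CPM in AT2CTRL and 79.3, 98.7 and 122 CPM in AT2CAB. The other listed genes of its family, also named after their values were seen, did not move with it. *Tle4* lay lower in all 3 AT2CAB libraries (log2 fold change -0.53, adjusted p = 0.277, edgeR). *Tle1* and *Tle2* were at -0.09 and -0.06, against 0.996 for *Tle3*. *Daam2*, *Ascl2*, *Tle3* and *Tle4* separated the groups without passing the threshold. So did *Ror1*, *Ctnnbip1* and *Csnk1e*, also named after their values were seen, with log2 fold changes of 0.98, 0.49 and -0.20.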

How the data were processed

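Alveolar type 2 cells were sorted by their lineage label, poly(A) RNA was enriched with an unstranded library kit, and paired reads were sequenced. Per the study's methods, reads were trimmed with Trimmomatic, mapped to mm10 with HISAT2, freed of duplicates with SAMtools, and counted per gene over exons with featureCounts (version 1.5.3 per the file header). The deposited values are raw counts made by the authors, with no normalization. Between 56.9% and 60.8% of counts from 1 to 20 were even, so mates may have been counted separately, and an alternative halved the counts. RPKM was computed from the exon length in the table.

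The test was that of edgeR 4.0.16, run in R 4.3.3 (quasi-likelihood test, TMM scaling, filterByExpr with a minimum count of 10), on 16723 of 24421 genes, with Benjamini-Hochberg adjustment over all of them. No covariate was used. DESeq2 1.42.0 and limma 3.58.1 (voom) were alternatives, among 18 in all. The study itself used DESeq2 to find differing genes. With the fold threshold, DESeq2 called 119 of all genes higher and 25 lower here, and edgeR called 38 and 2. The study gives the same numbers, 119 and 25, for genes changed more than 2-fold. The test reported here therefore called fewer genes than that of the study. The fits were tested on simulated data before use. Groups came from the titles and genotypes, 3 libraries each. The labels do not say that each library is 1 mouse, so p-values measure the spread between these libraries. No pair of libraries in a group agreed within sampling noise (chi-square per degree of freedom of at least 13.8). Libraries with the same replicate number did not deviate together (correlations of -0.32, 0.25 and -0.54), so the numbers were not used as pairs.

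The members and lists were chosen with earlier results of these data known. Values per library were given for members past a call rule, members whose groups did not overlap with an absolute log2 fold change over 0.5, the 2 members of each class with the highest RPKM, and *Axin2*, *Lgr5*, *Lef1*, *Tcf7*, *Wnt5a* and *Wnt7b*. *Wls* and *Notum* qualify by level. Other pathway genes were named if called, or not overlapping with an absolute log2 fold change over 1. Exons of *Wnt7b*, *Gsk3b*, *Dvl1* and *Tcf7l1* overlap a gene on the opposite strand, and since the reads carry no strand, their counts are uncertain to that extent. Promoter windows came from RefSeq.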

Additional observations from a re-analysis of the deposited data

How the results depend on the processing

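Of the results that answer a comparison, the numbers of members past each threshold changed with the test. Members past an adjusted p of 0.05 numbered 4 with the covariate for Y-linked reads, where 1.27% of all genes were higher and 1.26% lower. They numbered 2 in DESeq2, 1 with no filter on low counts and 0 to 1 with single libraries left out, against 0 in the test reported. For no filter and for libraries left out, the share of all genes past an adjusted p alone was not computed. With the fold threshold, 1 member was called higher with the covariate and 1 in DESeq2. Called lower were 1 member with the covariate and 1 with no filter, where 5 of all genes were lower. With single libraries left out, 0 to 1 member was called lower, the 1 being *Sp5* without AT2CAB 1, where 4 of all genes were lower. Over the fits with a library left out, 6 to 59 of all genes were called higher and 0 to 4 lower. Members lying above numbered 12 in the 4 libraries without Y-linked reads, 8 under library-size scaling and 5 to 11 with 1 library left out. Members lying below numbered 8 in those 4 libraries and 2 to 9 with 1 library left out. The counts with libraries left out rest on fewer values per group, which separate more easily. The share of all tested genes lying above or below was not computed for these alternatives. Their counts therefore cannot be set against a background. The median log2 fold change of the members was 0.29 under library-size scaling, which put the median of all genes at 0.12, and 0.085 to 0.32 with 1 library left out. The low members with a positive sign numbered 18 to 23 over all alternatives, and under a minimum count of 30 fewer of them were tested.

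Signs turned in 37 values of named genes, against 368 that kept their side of the threshold and 8 that newly passed it, and the turns were all in genes near 0 or with wide intervals. Under library-size scaling, a minimum count of 30 and upper-quartile scaling the log2 fold change was 0.087, 0.010 and 0.032 for *Axin2*, 0.087, 0.011 and 0.031 for *Fzd7*, and 0.12, 0.045 and 0.061 for *Tcf7l1*. *Tcf7l1* was also 0.0099 with halved counts, 0.0069 in DESeq2 and 0.0069 with DESeq2 size factors, and 0.10 in the 4 libraries without Y-linked reads. In those 4 libraries *Dvl1* was -0.0064, *Lrp5* -0.045 and *Wnt3a* 0.39, *Dvl1* was -0.0059 with no filter, and *Wnt3a* was 0.044 in voom. With single libraries left out, the ranges were -0.088 to 0.052 for *Axin2*, -0.25 to 0.048 for *Ctnnb1*, -0.030 to 0.062 for *Dvl1*, -0.14 to 0.054 for *Fzd7*, -0.025 to 0.37 for *Lgr4*, -0.080 to 0.15 for *Lrp5*, -0.054 to 0.66 for *Sfrp2*, -0.043 to 0.32 for *Tcf7*, -0.055 to 0.052 for *Tcf7l1*, -0.54 to 0.16 for *Wnt3a* and -0.024 to 0.34 for *Wnt7b*. The cause was not tested.

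With the replicate number as a block, *Sp5* was at -1.02 (adjusted p = 0.0770, edgeR) and *Wnt11* at 2.05 (adjusted p = 0.269, edgeR), *Wnt3a* at 0.0044, the members' median at 0.16 and the number past the threshold at 0. The labels give no pairing behind the numbers. The members under 1 CPM had wide intervals, as did some at higher levels such as *Wnt3a*, and the part of depth in this was not tested.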
